A study of Mus musculus with 18 samples.

Results

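The genes described here are those by which Leydig cells, the hormone-producing cells between the seminiferous tubules of the testis, make androgen. They were chosen by mouse symbol and number 10 of the 37620 gene IDs counted in each library: Cyp17a1, Cyp11a1, Hsd3b1, Hsd3b6, Star, Hsd17b3, Insl3, Lhcgr, Scarb1 and Nr5a1. Polyadenylated RNA of 18 libraries was sequenced from mice of the strain C57B6/129 hybrid that were given doxycycline at 2 mg/ml in the drinking water at 6 to 8 weeks of age to switch on a histone. In K9M mice, lysine 9 of histone H3 is replaced by methionine, in K36M mice lysine 36 is, and the labels call the controls wildtype (WT) without stating whether they carry a transgene. Neither the promoter that drives the histone nor the length of the induction is known from the labels. Each of 3 tissues had 2 libraries per genotype, made from dissociated testes, from dissociated intestine, and from cKit-positive, lineage-negative progenitors of bone marrow. Testes and intestine share 6 mouse numbers in the labels (1516 and 1519 for K9M, 1485 and 1553 for K36M, WT.1476 and WT.1477 for WT), taken here as the same mice, and bone marrow came from 6 others.

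Leydig cells take up cholesterol, move it into mitochondria, cleave its side chain, and carry the product through the smooth endoplasmic reticulum to testosterone. Luteinizing hormone from the pituitary drives this through its receptor and cyclic AMP, and the nuclear receptor SF-1, the product of Nr5a1, binds the promoters of many genes of the route. Histone H3 with lysine 9 or lysine 36 changed to methionine is known to inhibit the enzymes that methylate that lysine, which on lysine 9 is a mark of silenced chromatin and on lysine 36 of transcribed genes. How far the methylation fell in these testes was not measured here.

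Promoters are shown for 4 members because they include both 3-beta-hydroxysteroid dehydrogenase copies, which did not move alike, and the 2 genes, besides Hsd3b1, that hold the letters SF-1 is known to recognise. They are the 200 bases from 250 to 51 before the start that RefSeq gives on GRCm38.p6, written 5′ to 3′ on the gene's strand, and capitals mark a match to TCAAGG or CAAGGNC on either strand.
Hsd3b1, chr3:98859845-98860044, minus strand: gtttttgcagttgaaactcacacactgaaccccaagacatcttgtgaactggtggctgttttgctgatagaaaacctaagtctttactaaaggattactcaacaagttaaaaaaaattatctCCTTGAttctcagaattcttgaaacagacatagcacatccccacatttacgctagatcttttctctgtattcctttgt
Hsd3b6, chr3:98814494-98814693, minus strand: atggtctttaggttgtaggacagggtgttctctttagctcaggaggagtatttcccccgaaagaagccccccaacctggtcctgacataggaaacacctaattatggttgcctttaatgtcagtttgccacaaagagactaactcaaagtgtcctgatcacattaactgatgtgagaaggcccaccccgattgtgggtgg
Insl3, chr8:71689002-71689201, plus strand: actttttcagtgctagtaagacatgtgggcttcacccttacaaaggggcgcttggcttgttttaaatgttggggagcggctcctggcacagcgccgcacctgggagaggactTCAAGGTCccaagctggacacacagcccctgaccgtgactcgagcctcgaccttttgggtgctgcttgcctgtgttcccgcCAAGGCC
Lhcgr, chr17:88792065-88792264, minus strand: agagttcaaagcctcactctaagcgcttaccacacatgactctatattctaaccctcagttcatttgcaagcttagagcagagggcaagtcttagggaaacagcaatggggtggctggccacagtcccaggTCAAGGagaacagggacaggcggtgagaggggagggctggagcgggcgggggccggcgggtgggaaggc
These 2 overlapping motifs were chosen after the sequences had been seen. TCAAGG occurred in 10.3% and CAAGGNC in 12.4% of 32851 promoter windows of the same length, and 19.0% held either. RefSeq windows were at hand for 6 members, and 3 of them held a match: 1 in Hsd3b1 on the opposite strand, 1 in Lhcgr, and 3 in Insl3, 2 of which overlap. The windows of Hsd3b6, Cyp11a1 and Hsd17b3 held none. A match is a description of letters and not a binding site.

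In K36M testes, the genes of androgen synthesis were low, and the cholesterol receptor and SF-1 genes were high. Of the 10 members, all tested, 7 fell, 2 rose and Hsd3b1 did not pass, in a comparison in which 49.5% of the 19160 genes tested passed (25.7% higher and 23.8% lower). The members' median log2 fold change was -1.83, against 0.02 over all genes tested. Levels are counts per 1000000 (CPM) scaled by edgeR's TMM factors, fold changes are log2 values ± SE of K36M over WT, and a gene rose or fell where edgeR's quasi-likelihood test gave a Benjamini-Hochberg adjusted p under 0.05 over all genes. RNA came from whole dissociated tissue, so fewer Leydig cells and less RNA per Leydig cell cannot be told apart.

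The side-chain and 17-alpha-hydroxylase enzymes fell furthest. Cyp17a1, which makes androstenedione by its hydroxylase and lyase activities, had 9.77 and 2.59 CPM in K36M testes and 232 and 171 CPM in WT testes. Its log2 fold change was -5.02 ± 0.72 (edgeR adjusted p = 0.00419), a 32.5-fold lower level. Cyp11a1, the mitochondrial enzyme that cleaves the cholesterol side chain, had 3.54 and 8.20 CPM in K36M testes and 97.0 and 70.7 CPM in WT testes (-3.84 ± 0.53, edgeR adjusted p = 0.00393). Both K36M libraries lay far below both WT libraries for both enzymes, but the order of the K36M mice was not the same: mouse 1485 was higher for Cyp17a1 and mouse 1553 for Cyp11a1.

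Hsd3b6 and Hsd3b1 encode 3-beta-hydroxysteroid dehydrogenases, which turn pregnenolone into progesterone; in mice Hsd3b6 is known as the copy of adult Leydig cells. Hsd3b6 had 11.2 and 2.65 CPM in K36M testes and 73.4 and 77.5 CPM in WT testes (-3.45 ± 0.65, edgeR adjusted p = 0.00794). Hsd3b1 had 13.7 and 2.84 CPM in K36M testes and 16.7 and 23.4 CPM in WT testes (-1.27 ± 0.60, edgeR adjusted p = 0.123). The K36M mice differed 4.84-fold for Hsd3b1, and without mouse 1485 its log2 fold change was -2.88 with an edgeR adjusted p of 0.0345. Hsd17b3, which makes testosterone from androstenedione, had 4.98 and 3.58 CPM in K36M testes and 14.6 and 14.3 CPM in WT testes, and fell by 1.75 ± 0.36 on the log2 scale (edgeR adjusted p = 0.00933).

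Star, the carrier that moves cholesterol into mitochondria and limits the rate of the whole route, had 21.3 and 19.4 CPM in K36M testes and 89.1 and 62.8 CPM in WT testes (-1.90 ± 0.50, edgeR adjusted p = 0.0218). Lhcgr, the luteinizing hormone receptor, had 1.74 and 0.740 CPM in K36M testes, from 29 and 12 counts, and 7.62 and 6.71 CPM in WT testes (-2.52 ± 0.52, edgeR adjusted p = 0.00984). Groups did not overlap for either gene, and Lhcgr had the fewest counts of all members in testes. Insl3, a peptide hormone of Leydig cells that guides testis descent, fell least of the 7, with 16.2 and 13.2 CPM in K36M testes and 21.6 and 32.1 CPM in WT testes (-0.87 ± 0.25, edgeR adjusted p = 0.0257). Insl3 is uncertain because 61.8% of the 50-base windows of its longest transcript also lie in Jak3 transcripts in the GENCODE M21 models, and Jak3, a cytokine receptor kinase singled out for that overlap, had 10.4 and 7.58 CPM in K36M testes and 9.18 and 13.4 CPM in WT testes.

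Scarb1 and Nr5a1 went the other way. Scarb1, the receptor that takes up cholesterol esters from high-density lipoprotein, had 243 and 292 CPM in K36M testes and 138 and 126 CPM in WT testes (1.02 ± 0.15, edgeR adjusted p = 0.00397). Nr5a1, which encodes SF-1, had 41.5 and 51.9 CPM in K36M testes and 26.5 and 29.6 CPM in WT testes (0.73 ± 0.16, edgeR adjusted p = 0.0118). Both K36M libraries were above both WT libraries for each gene. Neither gene is restricted to Leydig cells: in mice Sertoli cells also carry SF-1 and SR-BI. The Sertoli list given further on was higher in the same libraries, and the part of Sertoli cells in these rises was not tested.

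**Figure D1:**
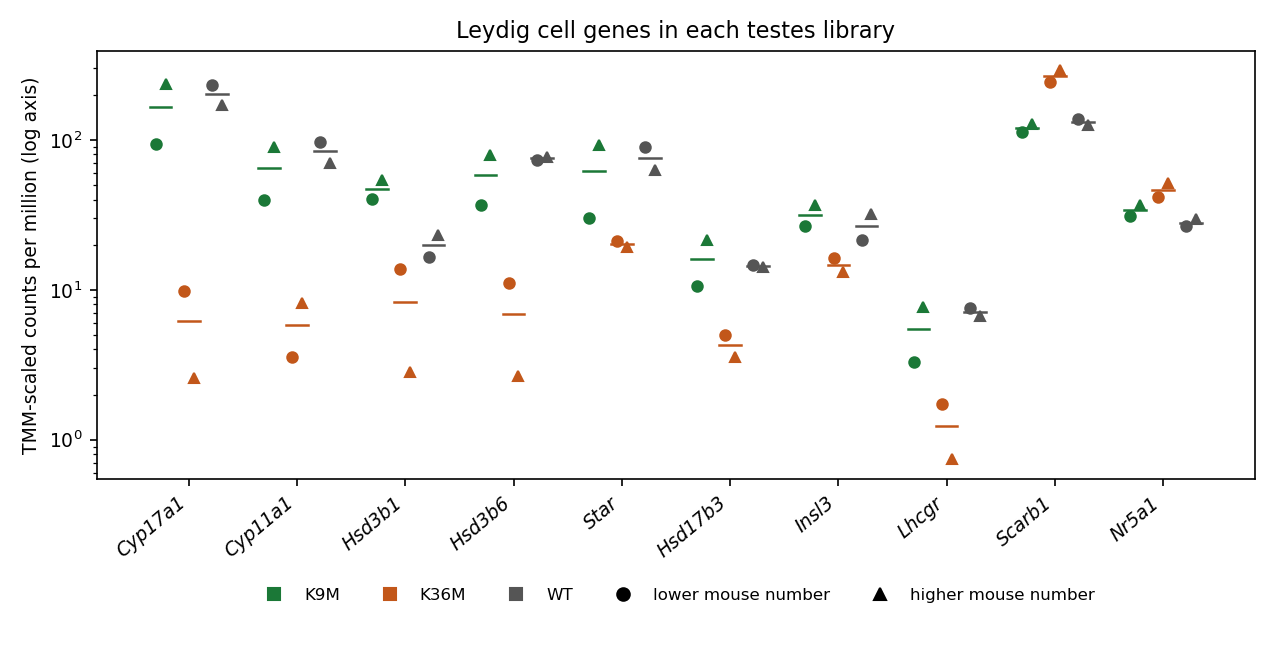
TMM-scaled CPM (log axis) of the 10 members in each testes library, with K9M, K36M and WT from left to right within a gene. Points are single mice (the circle has the lower number) and bars are means of 2. In K36M, 8 members lie below both WT libraries and Scarb1 and Nr5a1 lie above them, while in K9M mouse 1519 is above mouse 1516 for every member. The share of all genes placed in these ways is not given here.

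The 7 falls and the 2 rises rest on few libraries. Without K36M mouse 1553, edgeR called 2 members, Scarb1 and Nr5a1, and without K36M mouse 1485 it called 3, which were Scarb1, Nr5a1 and, lower, Hsd3b1. None of the 7 falls passed in either fit, with edgeR adjusted p of 0.0910 to 0.323 without mouse 1553 and 0.0524 to 0.271 without mouse 1485. Without mouse WT.1476, Nr5a1 was not called (log2 fold change 0.65). Without mouse WT.1477, neither Nr5a1 (0.82) nor Scarb1 (0.95) was called. Some of the 7 falls were also lost in each of these fits. No member changed direction, and Cyp17a1 stayed between -6.32 and -4.38, whichever testes library was left out. Without the filter on low counts Hsd3b6 (edgeR adjusted p = 0.0728) and Star (0.134) no longer passed.

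In K9M testes, no member passed against WT. That was 0 of 10 by edgeR, 0 by DESeq2 and 0 at an unadjusted p under 0.05, in a comparison in which 0.0678% of genes passed. The 2 K9M mice differed from each other: mouse 1519 was above mouse 1516 for 10 of 10 members, mouse 1516 lay below both WT mice for 7, and mouse 1519 lay above both for 8. The share of all genes with these orders is not given here, so the counts only describe the members. Cyp17a1 had 94.0 CPM in K9M mouse 1516 and 236 CPM in K9M mouse 1519, against 232 and 171 CPM in WT testes (-0.29 ± 0.59, edgeR adjusted p = 0.9999). Star had 30.3 and 93.3 CPM in K9M testes and 89.1 and 62.8 CPM in WT testes, a 3.08-fold difference between the K9M mice. With one K9M mouse low and the other at or above WT, the K9M and WT groups overlapped for 8 members.

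Hsd3b1 was the member with the largest K9M difference. It had 40.4 and 54.2 CPM in K9M testes and 16.7 and 23.4 CPM in WT testes, 2.02 and 2.71 times the WT mean. Both K9M mice were above both WT mice, but the log2 fold change of 1.24 ± 0.57 did not pass (edgeR adjusted p = 0.9999, unadjusted p = 0.0695). Hsd3b6, its close relative, had 37.1 and 79.4 CPM in K9M testes and 73.4 and 77.5 CPM in WT testes. Nr5a1 was also above both WT libraries in K9M, by less, at 31.0 and 36.9 CPM in K9M testes against 26.5 and 29.6 CPM in WT testes.

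**Figure D2:**
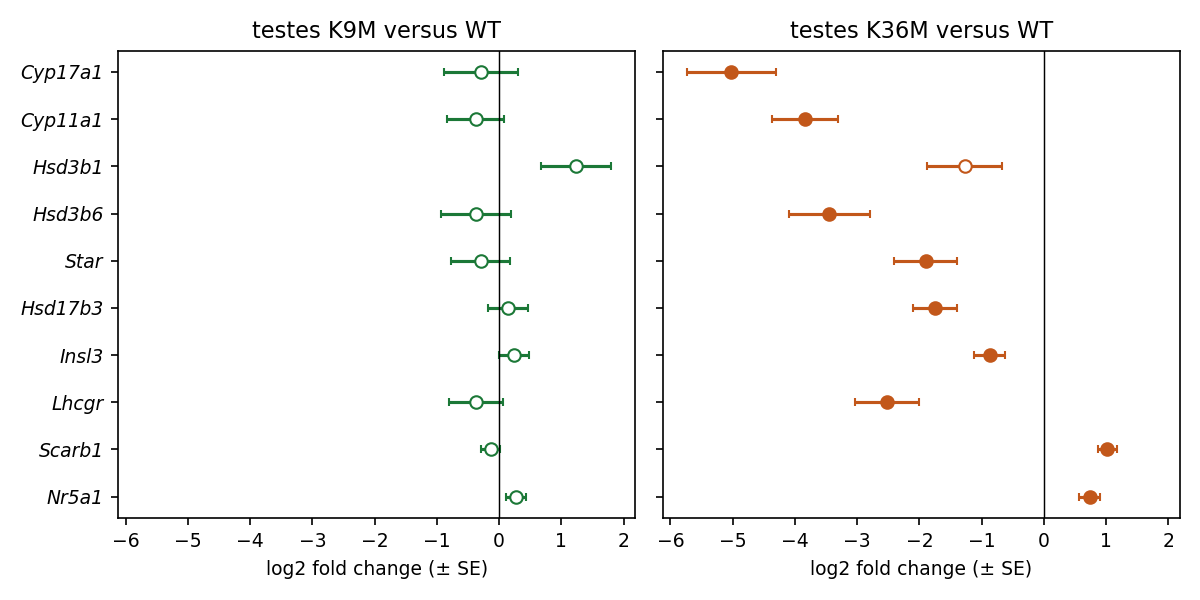
Log2 fold changes ± SE of the 10 members in testes for K9M over WT (left) and K36M over WT (right), from edgeR with 2 libraries per group. Filled points passed an adjusted p of 0.05 and open points did not; 7 members are filled below 0 and 2 above 0 in K36M, and none is filled in K9M.

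Set directly against K36M, K9M testes were higher for 8 members and lower for 1, where 49.2% of genes passed (23.9% higher and 25.4% lower). Cyp17a1 was higher by 4.73 ± 0.71 on the log2 scale (edgeR adjusted p = 0.00476), with 94.0 and 236 CPM in K9M testes and 9.77 and 2.59 CPM in K36M testes. Hsd3b1 passed here, at 2.51 ± 0.61 (edgeR adjusted p = 0.0173), with 40.4 and 54.2 CPM in K9M testes and 13.7 and 2.84 CPM in K36M testes. Scarb1 was the member that fell, with a log2 fold change of -1.15 ± 0.15 (edgeR adjusted p = 0.00338), and Nr5a1 missed the threshold (-0.46 ± 0.16, edgeR adjusted p = 0.0512). This comparison and the 2 against WT share libraries and are not independent of each other. Without K9M mouse 1516, edgeR called no gene and no member, and the adjusted p of Cyp17a1 was 0.0521 at a log2 fold change of 5.25.

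The balance of the 3-beta-hydroxysteroid dehydrogenase copies differed between the mutant and the WT testes libraries, which is a description. Hsd3b1 made up 52.2% and 40.6% of the summed counts of Hsd3b1 and Hsd3b6 in K9M testes, 55.2% and 51.7% in K36M testes, and 18.5% and 23.2% in WT testes. The 95% Wilson intervals, which cover counting error only, reach down to 38.8% in K9M and 41.5% in K36M. Every mutant library thus held a larger Hsd3b1 share than either WT library. The means were 46.4 ± 8.19% in K9M, 53.4 ± 2.47% in K36M and 20.8 ± 3.27% in WT (SD, n = 2 each), and an exact two-sided permutation test gave p = 0.333 for each mutant against WT, the smallest that 2 against 2 can give. In K9M the share was higher with a Hsd3b1 level above WT, and in mouse 1516 also with Hsd3b6 at 0.49 times the WT mean. In K36M the share was higher with a Hsd3b6 level far below WT. The 2 genes are close copies, with 4.98% of 50-base windows of Hsd3b1 and 16.0% of those of Hsd3b6 found in other genes, so their counts are uncertain where reads could not be placed uniquely.

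**Figure D3:**
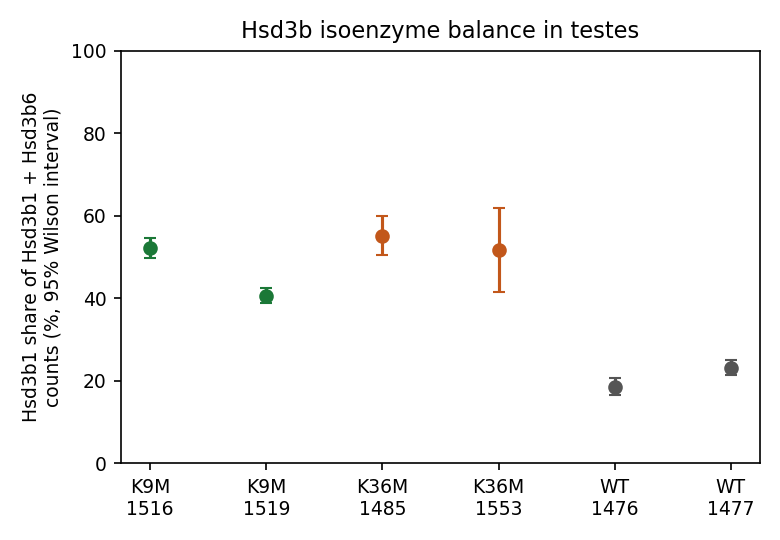
Share of Hsd3b1 in the summed counts of Hsd3b1 and Hsd3b6 in each testes library, in percent, with 95% Wilson intervals; the labels give genotype and mouse. The 4 mutant libraries lie between 40.6% and 55.2%, above the WT libraries at 18.5% and 23.2%.

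Per kilobase of exon, the order of the members shifted in K36M testes. In K9M testes Cyp17a1 came first at 59.6 ± 36.2 CPM per kb, followed by Insl3 at 51.1 ± 11.3, and the ranges of neighbouring members overlapped down to Nr5a1. In K36M testes Scarb1 came first at 31.5 ± 4.08 CPM per kb, then Insl3 at 23.6 ± 3.40 and Nr5a1 at 11.0 ± 1.74, with no overlap between these neighbours. In WT testes Cyp17a1 was first at 72.7 ± 15.7 CPM per kb, above Insl3 at 43.0 ± 12.0 and Hsd3b6 at 41.9 ± 1.62, which overlapped, and Lhcgr was last in every genotype, at 0.937 ± 0.0847 in WT (SD, n = 2 each). Steroid enzymes that led the WT order thus stood below the cholesterol receptor, the peptide hormone and the SF-1 gene in K36M. The order depends on the length used: Scarb1 was divided by 8500 exon bases, while its longest transcript has 3093 bases. The rank of Insl3 is uncertain, as 61.8% of its 50-base windows also lie in Jak3 transcripts.

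Among other genes of the steroid route, rises and falls both occurred. The counts of these lists stand beside the 25.7% of all genes tested that rose and the 23.8% that fell. Of 6 electron carriers, which pass electrons to the steroid cytochromes P450, 1 rose and 1 fell: Cyb5a, cytochrome b5, which aids the lyase step of Cyp17a1, rose to 30.9 ± 1.98 CPM in K36M testes against 18.5 ± 0.634 CPM in WT testes, and Fdx1, the ferredoxin that serves Cyp11a1, fell to 20.9 ± 3.72 CPM in K36M against 33.8 ± 6.64 CPM in WT (edgeR adjusted p = 0.0119 and 0.0293). Of 15 tested of 21 other steroid enzymes, 4 rose and 3 fell at a median of -0.13. Those with the smallest adjusted p were the 17-beta-hydroxysteroid dehydrogenase genes Hsd17b11 (1.54 ± 0.19) and Hsd17b12 (0.64 ± 0.14), and both rose. The adrenal cortex enzymes Cyp11b1 and Cyp11b2, which make corticosterone and aldosterone in mice, both fell: Cyp11b1 averaged 1.14 ± 1.18 CPM in K36M testes and 4.50 CPM in WT testes (-1.96 ± 0.57, edgeR adjusted p = 0.0289), and Cyp11b2 averaged 0.574 ± 0.376 CPM in K36M testes and 1.58 ± 0.0514 CPM in WT testes (-1.45 ± 0.45, edgeR adjusted p = 0.0348). Both were kept by the filter on low counts only through WT and K9M testes, where they are higher, so these 2 calls are a description. Their list had 2 falls and no rise among 3 tested of 4, and the same 2 genes are among the 3 falls of the other steroid enzymes.

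Of 17 tested of 18 genes of cholesterol supply, 8 rose and 3 fell (median 0.09), against 25.7% and 23.8% of all genes. Tspo, a protein of the outer mitochondrial membrane long studied in cholesterol import, had 12.0 ± 0.319 CPM in K36M testes, against 4.50 CPM in both WT mice. The porin gene Vdac1 had 83.6 ± 24.1 CPM in K36M testes against 27.4 ± 1.80 CPM in WT testes (edgeR adjusted p = 0.00256 and 0.00307). Of 24 tested of 25 regulators and signalling genes, 9 rose and 3 fell (median 0.37). Nr4a3, an orphan nuclear receptor, rose by 1.96 ± 0.16, and Gata4, a transcription factor of Leydig and Sertoli cells, by 1.24 ± 0.13. Among 12 other genes used to mark Leydig cells, 3 rose and 2 fell (median 0.31), Tspo among the rises, and the prolactin receptor gene Prlr, which is also on the list of regulators, fell to 17.2 ± 1.81 CPM in K36M against 39.5 ± 1.08 CPM in WT. This second list of Leydig cell markers summed to 559 to 591 CPM in K36M testes and 496 to 503 CPM in WT testes, but its genes are not restricted to Leydig cells: it summed to 1306 to 1375 CPM in WT intestine. Aldh1a1, a retinaldehyde dehydrogenase, alone had 271 and 250 CPM in K36M testes and 216 and 193 CPM in WT testes. In K9M testes no gene of these 6 lists passed by edgeR.

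Markers of other testis cells moved in the same K36M libraries, in a comparison in which 25.7% of all genes tested rose and 23.8% fell. Of 15 tested of 16 genes of Sertoli cells, the nurse cells of the tubules, 13 rose and none fell (median 1.35), and the summed level was 3381 to 4556 CPM in K36M testes, 1486 to 1642 CPM in K9M testes and 1323 to 1361 CPM in WT testes. Wt1, a Sertoli transcription factor, rose by 1.60 ± 0.16 and Ctsl, a protease, by 1.66 ± 0.18. Of 7 peritubular myoid genes 6 rose, of 10 macrophage genes 7 rose and 2 fell, and of 7 endothelial genes 4 rose. Actg2 and Myl9 of smooth muscle, Cd163 of macrophages and Vwf and Flt1 of endothelium were among the rises, and Cx3cr1, a chemokine receptor of some macrophages, fell by 2.81 ± 0.37. Every marker of these lists that has a row had counts in all 6 testes libraries, so none was at 0.

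Germ cell stages were also uneven in K36M testes, beside the 25.7% of all genes tested that rose and the 23.8% that fell. Of 9 spermatocyte genes 7 fell and 1 rose (median -1.32), with Sycp1 of the synaptonemal complex at -0.98 ± 0.20 and Pgk2, a late glycolytic enzyme, at 0.93 ± 0.17; the summed level was 5078 to 5292 CPM in K36M testes and 6180 to 6215 CPM in WT testes. Of 9 spermatid genes 7 rose and none fell (median 1.36), with the protamine gene Prm2 at 1.56 ± 0.19 and the outer dense fiber gene Odf1 at 1.42 ± 0.18. The summed spermatid level was 22153 and 32606 CPM in K36M testes, 11632 and 10621 CPM in K9M testes, and 10495 and 10706 CPM in WT testes. Of 9 spermatogonial genes 4 rose, among them Etv5 (1.67 ± 0.16) and Uchl1 (1.18 ± 0.13). In K9M testes no gene of these 7 cell type lists passed by edgeR, and the part of these shifts in the members' levels was not tested.

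**Figure D4:**
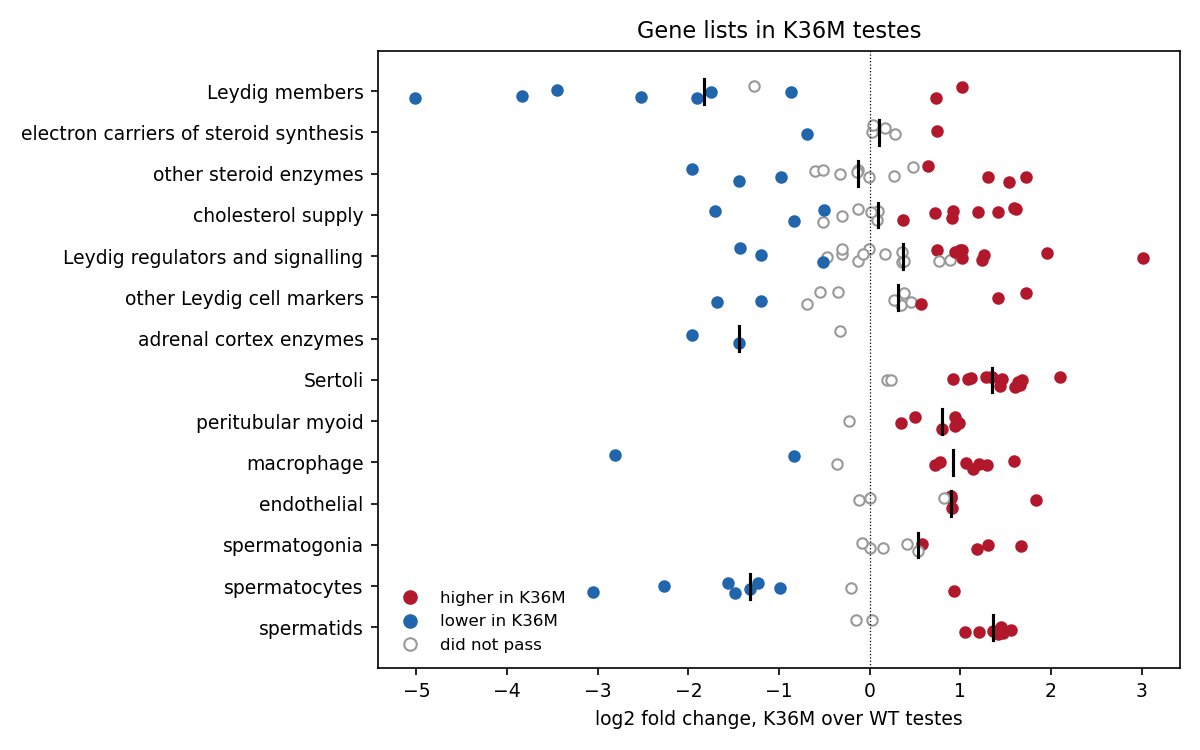
Log2 fold changes of K36M over WT testes for each tested gene of the 14 lists (points) and the list's median (black bar). Red genes rose, blue genes fell and open genes did not pass; the members have a median of -1.83 and the Sertoli list one of 1.35.

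A few other genes followed the members' mean pattern across the 6 testes libraries. Likeness was the root mean square difference in mean-centred log2 CPM, and it shares depth and scaling with the members. The 9628 genes compared had a mean log2 CPM of 3 or more. Members and symbols of predicted models, clones or pseudogenes were left out. Hsd17b3 was the member nearest to that mean, at 0.12, and Cyp17a1 the farthest, at 1.53. The nearest other genes were Ephx1, an epoxide hydrolase (0.150), Cdh2, which encodes N-cadherin (0.153), and Stard4, a cholesterol carrier (0.154). Ephx1 had 43.9 and 69.6 CPM in K9M testes, 14.7 and 12.9 CPM in K36M testes, and 57.2 and 52.2 CPM in WT testes. It was picked by its likeness over these same 6 libraries, so sharing the members' order of K9M mice is no separate observation. Pdzph1, the carboxylesterase gene Ces1d, the GATA cofactor gene Zfpm2, the histone gene Hist2h2be and the deubiquitinase gene Stambp followed, at 0.190 to 0.245.

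Outside the testis, most members were near 0. WT testes were higher than WT intestine for 9 of 10 members, where 82.9% of 20253 genes passed (47.6% higher). All of these except Star were kept by the filter on low counts only through testes libraries, so the count is a description. Lhcgr had no count in any intestine library and 127 and 143 counts in WT testes, at least 83.8-fold higher in WT testes with a floor of 3 counts over the group. Hsd3b1 had none in intestine either and was at least 241-fold higher in WT testes. Star had 89.1 and 62.8 CPM in WT testes and 4.95 and 6.58 CPM in WT intestine, each set scaled within its tissue (2.99 ± 0.47, edgeR adjusted p = 0.000171). Scarb1 was the exception at 138 and 126 CPM in WT testes and 29.3 and 89.2 CPM in WT intestine (0.42 ± 0.57, edgeR adjusted p = 0.499).

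In intestine only Star and Scarb1 had enough counts to be tested within the tissue, and neither passed in K9M (0.211% of genes passed) or K36M (23.3%). No member reached an unadjusted p under 0.05 in either comparison, and DESeq2 called none. Star had 6.11 and 4.23 CPM in K9M intestine, 5.75 and 6.01 CPM in K36M intestine, and 4.95 and 6.58 CPM in WT intestine. Scarb1 had 9.74 and 33.0 CPM in K9M intestine, 108 and 63.1 CPM in K36M intestine, and 29.3 and 89.2 CPM in WT intestine. Without a filter on low counts, Scarb1 fell in K9M intestine, by 1.46 on the log2 scale (edgeR adjusted p = 1.3e-08), against -1.47 ± 0.70 with the filter (adjusted p = 0.538). The K36M and K9M ranges of Scarb1 each overlapped the WT range, and both K36M mice exceeded both K9M mice.

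The 12 libraries of testes and intestine were fitted together to test, by an interaction term, whether the K36M effect differed between the tissues. Of the 10 members, 5 had at least 10 counts over the 6 intestine libraries. Nr5a1 alone passed, by 3.94 ± 0.91 (edgeR adjusted p = 0.0125), where 22.5% of genes passed. Its intestine side rests on 1 and 0 counts in K36M and 8 and 4 counts in WT. Nr5a1 was kept by the filter on low counts only through testes libraries, so its call is a description. Cyp17a1 had a difference of -4.42 ± 1.57 (edgeR adjusted p = 0.0704) and passed with the mouse as a block (-4.60 ± 0.59, adjusted p = 0.00570), where edgeR called 2 members and 2968 genes, against 4552 genes without the block. Cyp17a1 had 5 and 4 counts in K36M intestine and 11 and 5 counts in WT intestine. It too was kept by the filter on low counts only through testes libraries, so its call with the block is also a description. Star missed the threshold at -1.89 ± 0.64 (edgeR adjusted p = 0.0602). For K9M no member passed, by edgeR or DESeq2, 1 reached an unadjusted p under 0.05, and 0.123% of genes passed (25 genes, and 6 with the block).

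In bone marrow progenitors, Scarb1 was the one abundant member, at 131 and 122 CPM in K9M marrow, 123 and 118 CPM in K36M marrow, and 140 and 121 CPM in WT marrow. Of 6 members tested for K36M against WT, 1 was called higher, 1 was called lower and 4 did not pass, where 48% of genes passed (23.5% higher and 24.6% lower). Hsd3b1, the one called higher, had 13 and 13 counts in K36M marrow and none in K9M or WT marrow, at least 9.77-fold higher than in WT with a floor of 3 counts over the group. It was kept by the filter on low counts only through K36M marrow, where it is high, so its call is no support for a difference. Without either K36M mouse, Hsd3b1 was not kept by the filter on low counts and edgeR called no member. Hsd3b6, too low to be tested, had 11 and 2 counts in K36M marrow and none in K9M or WT marrow. These levels are small beside those of testes: Hsd3b1 had 0.644 and 0.721 CPM in K36M marrow.

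Lhcgr had 3 and 3 counts in K36M marrow, 9 and 10 counts in K9M marrow, and 14 and 18 counts in WT marrow. It fell in K36M by 2.20 ± 0.53 on the log2 scale (edgeR adjusted p = 0.0109), but not by DESeq2 (adjusted p = 0.0817) or without either K36M mouse (0.0764 and 0.0680) or mouse WT.1266 (0.0516), and the filter on low counts would not have kept it without WT marrow, where it is highest. Cyp11a1, at 2.33 and 2.05 CPM in K36M marrow and 2.72 and 2.44 CPM in WT marrow, and Star, at 6.10 and 7.71 CPM in K36M marrow and 5.16 and 6.39 CPM in WT marrow, did not pass. Nr5a1 had no count in any marrow library. For K9M against WT no member passed by edgeR or DESeq2, none reached an unadjusted p under 0.05, and 1.01% of genes passed.

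**Figure D5:**
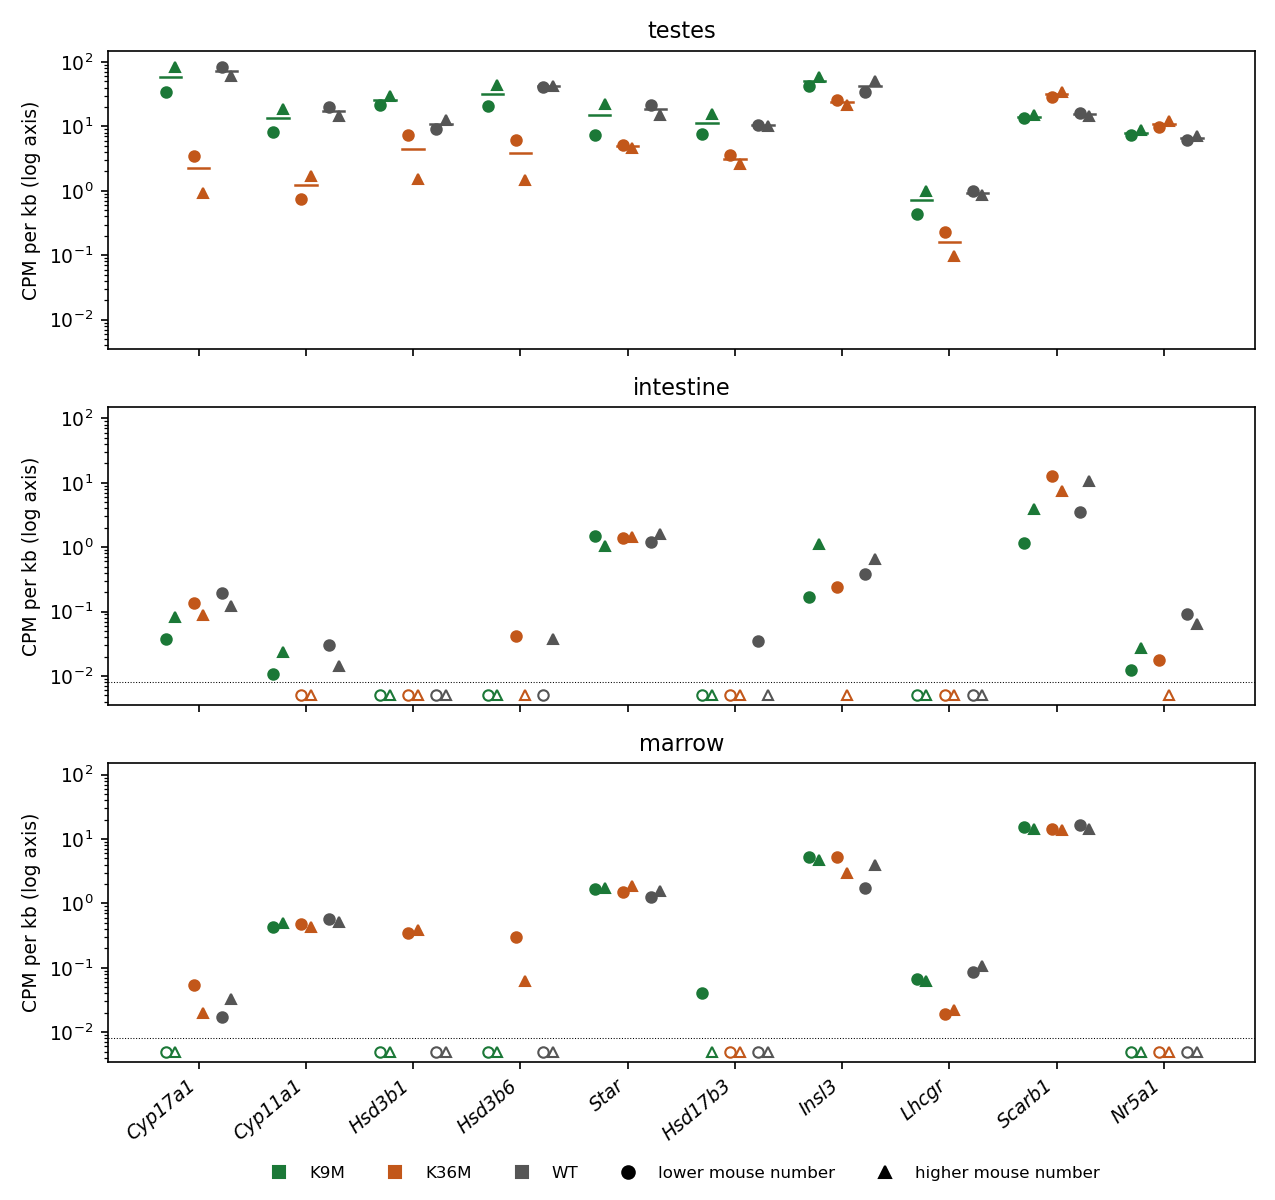
CPM per kilobase of exon (log axis) of the 10 members in each library of testes, intestine and marrow, scaled within each tissue, with K9M, K36M and WT from left to right. Open symbols under the dotted line are libraries with no count; bars in the testes panel are means of 2. Scarb1 and Star are detected in every tissue, and Hsd3b1 and Hsd3b6 appear in marrow only in K36M.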

How the data were processed

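Testes, intestine and bone marrow of mice of 3 genotypes were compared, 2 libraries a group. The authors deposited a table of whole-number counts of reads per gene and library, unscaled; the submitters' processing notes list STAR, HTSeq and mm9. Versions, annotation and use of strand are not given in the sources used here, so overlapping genes cannot be told apart. Totals over genes were 16122101 to 20993726 in testes, 13396303 to 20577661 in intestine and 17114164 to 21417915 in marrow. The 5 entries that name no gene stayed out: reads in no feature were 9.89% to 26.0%, ambiguous reads 2.21% to 4.17% and reads without a unique alignment 15.3% to 29.1% of all entries. Symbols and exon lengths came from GENCODE M21, on GRCm38, by gene ID (32897 IDs named).

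Each tissue was fitted alone in R 4.3.3 with edgeR 4.0.16: TMM factors, filterByExpr and robust quasi-likelihood fits on 3 group means (3 residual degrees of freedom), tested with Benjamini-Hochberg adjustment at 0.05. Testes and intestine were compared over 12 libraries (6 residual degrees of freedom), with the mouse as a block as an alternative. Testes and intestine are paired by the mouse numbers in the labels; deviations from the group mean of the first mouse correlated between tissues at 0.07 in K9M, -0.01 in K36M and 0.03 in WT over 20253 genes. Alternatives were DESeq2 1.42.0, DESeq2's size factors in edgeR, no filter on low counts, and each library left out. Where no source says that libraries are separate preparations beyond the mouse numbers, p-values measure the spread between these libraries. Intervals and floors (3 counts) cover counting error only.

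The members and lists were chosen with earlier results of these data known. The rule named all members; for each list and testes comparison, up to 2 genes with the smallest adjusted p past the threshold, or else the most abundant gene; and the 8 genes nearest to the members' mean pattern. Some genes that it named for the comparisons of K9M are not described.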

Additional observations from a re-analysis of the deposited data

Results flagged for a closer look

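Nr5a1, the gene of SF-1, was called in the interaction test of edgeR for K36M between testes and intestine (3.94 ± 0.91, adjusted p = 0.0125). It was too low to be tested within intestine and was kept by the filter only through testes libraries, so the call is a description. In testes both K36M mice were above both WT mice, at 41.5 and 51.9 CPM in K36M and 26.5 and 29.6 CPM in WT. In intestine the counts were 1 and 0 in K36M and 8 and 4 in WT, a count ratio of 0.0986 with a counting interval of 0.00231 to 0.667. The intestine library of mouse WT.1476 also held spermatid transcripts at 226 CPM, 2.15% of the level in that mouse's testes, against 8.55 CPM, or 0.0798%, in mouse WT.1477. The intestine level of Nr5a1, from 8 and 4 counts, was 1.47% of that in testes in mouse WT.1476 and 0.915% in mouse WT.1477. That of Cyp17a1 was 0.230% and 0.199%. Without that library the adjusted p was 0.0569 and without the intestine library of K36M mouse 1553 it was 0.0572; the part of testis RNA in the intestine values was not tested.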

How the results depend on the processing

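In testes, the 10 members kept their direction in K36M against WT under DESeq2, DESeq2's size factors in edgeR, no filter and each library left out; the cause of the calls lost was not tested. DESeq2's size factors kept the call of every member tested in the 3 testes comparisons. Without the filter, K9M against K36M in testes no longer called Hsd3b1, Hsd3b6 and Star (adjusted p 0.126, 0.0911 and 0.183) and called Nr5a1 (0.0499). DESeq2 called 42 genes for K9M against WT in testes, against 13 by edgeR, 363 in intestine against 30, 339 in marrow against 147, and 148 against 25 for the K9M interaction. No filter gave 37, 1180, 463 and 54, and 1 member in K9M intestine. DESeq2 called 3 members in the K36M interaction and 1 in K36M marrow. With the mouse as a replicate block, the K36M interaction had 2968 genes and 2 members, the K9M interaction 6 genes, and Insl3 had 0.079 in the K9M interaction (0.027 with no filter), against -0.047 in the fit reported; the block changed no other call of a member.

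Leaving out each library in turn left 1 in its group, which was taken to vary as much as the other groups do. Genes called were 2310 to 12934 for K36M against WT in testes (2 to 9 members), 0 to 247 for K9M against WT, and 0 to 12901 for K9M against K36M (0 to 8 members, lowest without K9M mouse 1516). They were 881 to 3775 for K36M and 0 to 141 for K9M in intestine, 4671 to 6861 for K36M (0 to 2 members) and 28 to 619 for K9M in marrow, and 2205 to 5407 for the K36M (0 to 3 members) and 1 to 671 for the K9M interaction. Log2 fold changes that changed sign belonged to members with no call. In K9M testes they were Cyp17a1 (-1.10 to 0.23), Cyp11a1 (-1.08 to 0.10), Hsd3b6 (-1.02 to 0.071), Star (-1.32 to 0.30), Hsd17b3 (-0.45 to 0.57), Insl3 (-0.012 to 0.56) and Lhcgr (-1.11 to 0.11). Elsewhere they were Scarb1 (-0.082 to 1.52) and Star (-0.18 to 0.23) in K36M intestine, Star in K9M intestine (-0.44 to 0.092), Scarb1 in K36M marrow (-0.23 to 0.00060) and K9M marrow (-0.15 to 0.057), Scarb1 in the K36M interaction (-0.30 to 1.17), and Insl3 (-0.79 to 1.80) and Star (-1.19 to 0.46) in the K9M interaction. The intestine and marrow values of the enzymes rest on few counts.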

Other observations

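Enzymes of the adrenal type of steroid synthesis appeared in K36M intestine, where the Leydig cell enzymes were near 0. The 3 genes of the adrenal list that were tested there were kept by the filter on low counts only through K36M intestine, so their calls within intestine are no support and their counts are given as a description. Cyp21a1, the 21-hydroxylase, had 159 and 41 counts in K36M intestine and none in K9M or WT intestine, at least 78.9-fold higher than in WT with a floor of 3 counts over the group. Cyp11b1, the 11-beta-hydroxylase that makes corticosterone, had 34 and 77 counts in K36M intestine, 2 and 0 counts in K9M intestine, and 0 and 1 counts in WT intestine, a ratio of K36M to WT of 131 with a counting interval of 23.1 to 5236. Cyp11b2, the aldosterone synthase, had 11 and 13 counts in K36M intestine and none in the other intestine libraries, at least 9.47-fold higher than in WT. In testes of the same K36M mice Cyp11b1 and Cyp11b2 were lower than in WT testes, which is likewise a description. The interaction test called all 3 genes, where 22.5% of genes passed (edgeR adjusted p = 0.00177 for Cyp11b1). That test uses the same K36M intestine counts, so its calls are no support either. Leaving out single libraries was not run for these genes. Cyp11a1, which starts the route, had no count in either K36M intestine library and 3 and 1 counts in WT intestine.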
